A study of Mus musculus with 8 samples.

Results

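The 2 small intestine libraries were compared with the 6 libraries of kidney, liver and lung, which together are the 8 libraries of bulk RNA sequencing in this series. The donors were male mice of the inbred strain C57BL/6J, given as C57BL/6 in the labels, at 6 to 10 weeks of age, with 2 libraries of each tissue and no treatment, transgene or deletion named for any group. Each tissue was washed in buffered saline and ground whole in liquid nitrogen before polyadenylated RNA was extracted, so a library holds epithelium, muscle, immune cells, vessels and nerves together, and in such samples fewer cells of a type and less RNA per cell cannot be told apart. The stretch of the small intestine that was taken (duodenum, jejunum or ileum) is not given in the sources used here, and while the study's methods have all 4 tissues taken from each mouse, so that libraries of different tissues share their donors, the labels do not tie a replicate number to a mouse. Values are fragments per kilobase of transcript scaled to the size of the library (FPKM), deposited by the authors and rescaled here between libraries by the median of ratios, and each value below is such a rescaled FPKM unless it is called a log2 difference. A pair of values for a tissue gives replicates 1 and 2 in that order. The low values came out as whole reads for 94.5% to 96.1% of genes within 0.02 reads, which gave 9360913 and 11323624 reads for small intestine and 9164187 to 21444675 over all libraries. At that depth a transcript of 1 kilobase listed at 0 in small intestine may still lie at up to 0.290 in replicate 1 and 0.253 in replicate 2, the level of 3 reads, counting error only.

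The small intestine breaks down food at the surface of its absorptive cells, the enterocytes, and takes up the products. The enterocyte surface is folded into microvilli, the brush border, which carries enzymes that split sugars and peptides and transporters that take them in. The lining renews itself within days from stem cells in the crypts, where Paneth cells secrete antimicrobial peptides. Goblet cells secrete mucus, enteroendocrine cells release hormones, and the wall around the lining holds smooth muscle and many lymphocytes.

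Of 16328 genes that reached a deposited FPKM of 1 in 2 libraries or more, 2129 (13%) were called higher in small intestine than the mean of kidney, liver and lung and 1895 (11.6%) were called lower. A call needed a Benjamini-Hochberg adjusted p under 0.05 from limma and an absolute log2 difference over 1, where a log2 difference is taken on log2(rescaled FPKM + 1), on which genes of low level show less than their full difference. The genes called higher were protein coding in 1791 cases, and their median absolute log2 difference was 1.78, against 1.57 for the genes called lower. Differences over 8-fold on this scale were found for 472 of the higher and 237 of the lower genes. Among the genes called higher, both small intestine libraries were above each of the other 6 libraries in 1702 (79.9%). Among the genes called lower, both were below each of the others in 919 (48.5%). These shares are of genes already called, and at this margin the share over all genes tested was not counted. Of the higher genes, 458 reached the minimum only with small intestine counted. A high level in 1 other tissue can be enough for a gene to be lower than the mean. The tissue with the highest level of the genes called lower was liver for 833 of them (44.0%), kidney for 595 and lung for 467. A stricter count without a test asked that both small intestine libraries lie at least 2-fold above, or below, each of the other 6, counted on rescaled FPKM + 1 here and below. It gave 867 genes above (5.31% of the genes tested) and 168 below (1.03%), and with 0.1 added in place of 1 it gave 1089 and 417.

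The single tissues gave counts of like size. Against kidney, 2448 genes were higher (15%) and 2218 lower (13.6%), against liver 2574 (15.8%) and 2287 (14%), and against lung 2575 (15.8%) and 2444 (15%). These 3 splits rest on the scaling between libraries. With the values as deposited, 78.2% of the genes called against liver were higher in small intestine in place of 53.0%, 24.8% of those called against lung in place of 51.3%, and 63.7% of those called against kidney in place of 52.5%, and the median over all tested genes was then 0.50, -0.57 and 0.18, in the same order. For the mean of the 3 tissues the share was 52.9% and stayed between 48.7% and 54.9% under the scalings tried. With median-of-ratios scaling the median over all genes tested was -0.05 for the mean of the other tissues, 0.01 for kidney, 0.04 for liver and -0.01 for lung, and the medians of gene lists below are to be read against these values.

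The functions of the higher and lower genes were described with 41 lists of genes. In 21 lists most of the genes tested were called higher in small intestine and in 8 lists most were called lower. The minimum for a test bears on the counts of higher genes, since a gene that does not reach it in the other 6 libraries can pass through small intestine and then lies higher there by selection. Of these there were 714 among the 16328 genes, of which 458 were called higher, against 1671 of the other 15614. They were 14 of 19 pancreatic genes tested, 12 of 14 enteroendocrine, 8 of 17 Paneth cell, 6 of 15 goblet cell, 6 of 20 brush border enzyme and 4 of 20 microvillus genes, and at least 1 gene in 19 of the lists. Without such genes 16 lists were mostly higher. An adjusted p given below for such a gene is no support for its direction. The lists with the highest medians held Paneth cell products, pancreatic enzymes, mucus components and the parts of the microvillus. Those with the lowest held plasma proteins made by the liver, surfactant and airway genes of the lung and enzymes of amino acid breakdown.

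**Figure D1:**
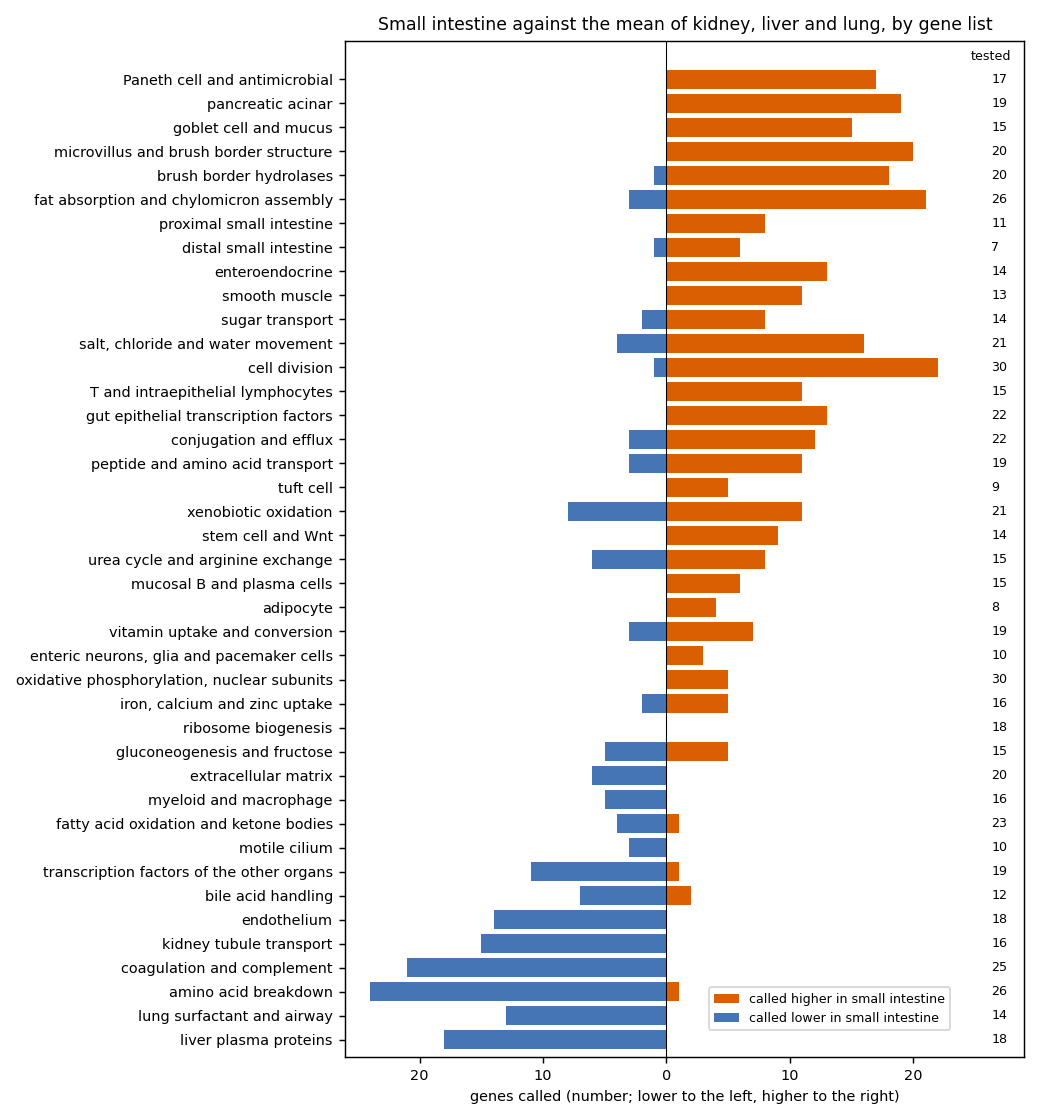
Number of genes called higher (bars to the right) and lower (bars to the left) in small intestine than in the mean of kidney, liver and lung, for each of 41 gene lists ordered by median log2 difference, with the number of genes tested at the right edge. All 20 tested genes of the microvillus list and all 17 of the Paneth cell list are on the right, and all 18 of the liver plasma protein list are on the left.

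The marker genes of gut epithelium were present in both small intestine libraries. The 10 genes set as markers, Vil1, Cdh17, Fabp2, Sis, Alpi, Muc2, Lyz1, Chga, Cdx1 and Cdx2, were each at 19.7 or more in both. Of these, 7 reached the minimum for a test only with small intestine counted, which fixes their direction, and the other 3, Vil1, Fabp2 and Lyz1, were called higher than the mean of the other tissues. Genes that mark the other organs were low. Albumin (Alb) was at 9.79 and 12.3 in small intestine and 62728 and 46809 in liver, the kidney phosphate transporter Slc34a1 at 0.476 and 0.523 against 958 and 911 in kidney, and the surfactant protein Sftpc at 3.84 and 4.65 against 7401 and 6092 in lung.

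The small intestine libraries differed from each other in several groups of genes. Their median absolute log2 difference was 0.171 over the genes tested, and 406 genes differed by more than 1, both on log2(rescaled FPKM + 1). Tff2, a trefoil peptide of stomach and of duodenal Brunner glands, was at 846 in replicate 1 and 7.22 in replicate 2. Gkn3, a stomach secretory gene, was at 379.6 and 3.94. Both were called higher than the mean by limma. Tff2 was also at 24.3 and 10.3 in lung, above replicate 2 of small intestine, and was not called against lung (limma adjusted p = 0.328) or liver (limma adjusted p = 0.0593). Without replicate 1 of small intestine the log2 difference was 1.01 for Tff2, with no call (limma adjusted p = 0.0925), and 1.69 for Gkn3, and without replicate 2 it was 7.70 and 7.97. Tff2 also lost its call when any 1 of 5 libraries of the other tissues was left out, lung replicate 1 being the exception. Of further stomach and Brunner gland genes, chosen after these values were seen, 4 went the same way, and of these only Pgc was tested, without a call: Gkn2 was at 60.4 and 0, Gkn1 at 27.7 and 0, the gland mucin Muc6 at 19.1 and 0.0630 and the pepsinogen Pgc at 20.6 and 0.425. Gif, the intrinsic factor of the stomach, was at 0.189 and 0.219, with no excess in replicate 1. The acid pump genes of parietal cells were near 0, with Atp4a at 0.0772 and 0.134 and Atp4b listed at 0 in both, as were Tff1 at 0.202 and 0 and the surface mucin Muc5ac at 0.369 and 0. Tff2, Gkn3, Gkn2, Gkn1, Muc6 and Pgc were thus far higher in replicate 1 than in replicate 2, while Gif, Tff1, Muc5ac and the acid pump genes were at or near 0 in both.

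The replicates also differed in genes that mark the ends of the small intestine. Of the genes listed for its proximal end, the calcium binding protein S100g was at 328 and 102, the fatty acid binding protein Fabp1 at 4192 and 2523, the hormone Gip at 120.1 and 62.5 and the transcription factor Pdx1 at 4.39 and 1.68 in replicates 1 and 2. Of those listed for the distal end, the ileal bile acid binding protein Fabp6 was at 0.202 and 24.3, the hormone Nts at 4.81 and 18.0 and the hormone Pyy at 0.460 and 2.81. Against the other tissues, 8 of 11 proximal genes were higher and none lower (median log2 difference 3.81), as were 6 of 7 distal genes tested, with Slc10a2 lower (median 3.69). Of these, 4 proximal and 3 distal genes reached the minimum only with small intestine counted, and without them 4 of 7 proximal genes (median 2.18) and 3 of 4 distal genes (median 2.66) were higher. The proximal median was 1.36 without replicate 1 of small intestine, over 7 genes, and the distal median 2.31 without replicate 2, over 5 genes. Over the whole lists, 8 of 11 proximal genes were higher in replicate 1 and 10 of 10 distal genes in replicate 2, the distal ones with 3 below the minimum for a test. The brush border enzymes were higher in replicate 2 in 15 of 20 genes and the microvillus genes in 18 of 20, whereas replicate 1 was higher for 16 of 18 endothelial, 17 of 20 extracellular matrix and 12 of 14 smooth muscle genes. The median log2 difference between the replicates was 1 or less in size in every list. The part of position along the intestine, of the share of muscle and vessels or of the mouse in these differences was not tested. Without replicate 1 of small intestine 1809 genes were called higher and 1863 lower, of which 1633 and 1734 were also called with both, and without replicate 2 the counts were 1705 and 1794, of which 1558 and 1690 were shared.

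**Figure D2:**
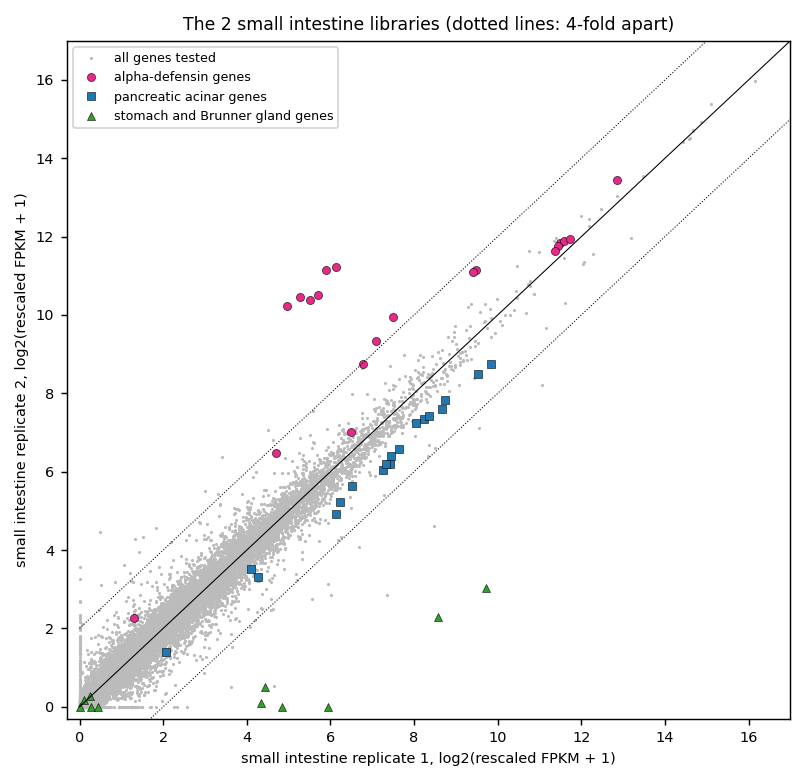
Level of each of 16328 tested genes, log2(rescaled FPKM + 1), in small intestine replicate 1 (horizontal axis) and replicate 2 (vertical axis), with the line of equality and dotted lines 4-fold from it, and with the stomach and Brunner gland genes drawn whether or not they reached the minimum for a test. Of 20 alpha-defensin genes, 6 lie more than 16-fold towards replicate 2, the pancreatic acinar genes apart from Zg16 lie towards replicate 1, and the stomach and Brunner gland genes Tff2, Gkn3, Gkn2, Gkn1, Muc6 and Pgc lie far towards replicate 1.

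Enzymes of the brush border were higher in small intestine in 18 of 20 genes tested, with a median log2 difference of 4.31 (12 of 14 and 3.11 without the genes that reached the minimum only with small intestine counted), and 15 were at least 2-fold above each other library. Among the disaccharidases, which split sugars at the enterocyte surface, sucrase-isomaltase and lactase were close to absent elsewhere, while trehalase (Treh, 213 and 173) was also found in kidney (34.0 and 44.2). Sucrase-isomaltase (Sis) was at 197 and 330.1 in small intestine, 0.0485 and 0.323 in kidney, 0.609 and 0.620 in liver and 0.378 and 0.0738 in lung (log2 difference 7.60, standard error 0.22, adjusted p = 4.57e-07). Lactase (Lct) was at 115 and 125 in small intestine, 0.0565 and 0.163 in kidney, 0.216 and 0.241 in liver and 0.176 and 0.0265 in lung (log2 difference 6.72, standard error 0.12, adjusted p = 1.92e-07). Neither gene reached 1 in any library of the other tissues. Both met the minimum for a test only with small intestine counted, which fixes their direction. The intestinal alkaline phosphatase Alpi, a defining enterocyte enzyme, had the largest difference of the list, 8.42 (standard error 0.25), with 579 and 453 in small intestine and at most 0.930 elsewhere. Enteropeptidase (Tmprss15), which activates trypsin, was at 11.8 and 8.55 and at most 0.0472 elsewhere. The peptidases Anpep and Mep1b were at 765 and 1077 and 273 and 342, each above its kidney level of 22.7 and 23.8 and 65.1 and 91.9.

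Not all enzymes of the list were highest in small intestine. Folh1, a carboxypeptidase that releases glutamate from folate, was called lower, with 0 and 0.0263 in small intestine against 25.6 and 23.3 in kidney (log2 difference -1.68, standard error 0.10, adjusted p = 1.03e-05), while its relative Naaladl1 was at 90.3 and 254 against at most 0.476 elsewhere. Nt5e, which makes adenosine at the cell surface, was not called (log2 difference -0.98, adjusted p = 0.00511), and was called lower without replicate 2 of small intestine, replicate 1 of kidney or replicate 2 of liver (-1.21, -1.05 and -1.10). Meprin alpha (Mep1a) and gamma-glutamyltransferase (Ggt1) were called higher than the mean of the others, but both were lower than in kidney, at 15.4 and 32.3 against 366 and 453 and at 121 and 118 against 209 and 277. Kidney, not small intestine, had the highest level of these enzymes. The call of Mep1a was lost without replicate 2 of small intestine (log2 difference 0.68).

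The promoters of 3 of these genes are shown because they carry short motifs of transcription factors that the small intestine libraries express, which are described further on. The letters were searched on both strands in the 250 bases before the start of each gene in RefSeq (build GRCm38.p6), which gave a promoter for 27025 genes, 10988 of them among the genes tested. The capitals mark the match, CATAAA for CDX in Sis (where its reverse complement is read) and Lct, and CAAAGTCCA for HNF4 in Alpi, and each window is printed 5′ to 3′ on the strand of the gene.
Sis, chr3:72967874-72967933, minus strand: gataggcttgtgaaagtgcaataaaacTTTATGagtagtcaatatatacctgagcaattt
Lct, chr1:128328319-128328378, minus strand: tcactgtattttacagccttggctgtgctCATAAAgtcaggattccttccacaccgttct
Alpi, chr1:87101607-87101666, minus strand: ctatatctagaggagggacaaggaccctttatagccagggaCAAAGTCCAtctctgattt
The match lies 43 to 38 bases before the start in Sis, 31 to 26 in Lct and 19 to 11 in Alpi. The CDX letters were found in 12.4% of all promoters, in 8.21% of those of the genes tested, in 9.67% of those of genes called higher, in 9.24% of those of genes called lower and in 11.8% of the 619 promoters of genes at least 2-fold above all other libraries. The HNF4 letters, which do not overlap with those of CDX, were found in 0.451%, 0.637%, 1.24%, 0.807% and 1.94%, in the same order, the last of these being 12 promoters. Of the 15 brush border enzymes called higher that had a promoter in the table, 3 held the CDX letters and 2 the HNF4 letters. A match describes the letters and not a bound site.

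The scaffold of the brush border was higher throughout. All 20 genes listed for the microvillus and the surface of enterocytes were called higher, with a median log2 difference of 5.39, and 17 were at least 2-fold above each other library. Villin (Vil1), which bundles actin in the microvillus, was at 345 and 499 in small intestine, 32.4 and 35.4 in kidney, 0.946 and 1.48 in liver and 0.683 and 0.155 in lung (log2 difference 6.45, standard error 0.21, adjusted p = 6.62e-07). Myosin 1a (Myo1a), which ties the bundle to the membrane, was at 163 and 224 and at most 0.638 elsewhere. The intermicrovillar adhesion proteins Cdhr2 and Cdhr5 were at 181 and 207 and 282 and 362. Keratin 20 (Krt20), of differentiated enterocytes, had the largest difference, 8.56 (standard error 0.27), and Krt18, a keratin shared by simple epithelia, the smallest, 1.22 (standard error 0.16), since liver held 115 and 101 against 66.3 and 61.8 in small intestine. Levels of Eps8l3 are less certain, as 42.4% of its exon bases overlap another gene and the kit does not keep the strand.

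Sugar transporters split into those of gut and those of kidney. Of 14 genes tested, 8 were higher, 2 lower and 4 not called, with a median log2 difference of 2.16. Of the 14, 3 reached the minimum only with small intestine counted, and of the other 11, 5 were higher, with a median of 0.57. Without replicate 1 or replicate 2 of small intestine 11 genes reached the minimum, of which 5 were higher, and the median was 0.51 or 0.65. The sodium-glucose transporter Slc5a1 (SGLT1), which takes up glucose and galactose from food, was at 283 and 500.3 in small intestine, 15.3 and 13.8 in kidney, 1.59 and 1.47 in liver and 1.62 and 0.640 in lung (log2 difference 6.44, standard error 0.26, adjusted p = 1.48e-06). Slc5a2 (SGLT2), which recovers glucose from urine, was at 0.167 and 0.0582 in small intestine, 114 and 107 in kidney, 0.136 and 0.533 in liver and 0.214 and 0.0293 in lung (log2 difference -2.30, standard error 0.15, adjusted p = 1.48e-05). The fructose transporters Slc2a5 and Slc2a7 were at 30.1 and 27.6 and at 11.3 and 12.5, and Slc2a5 was also at 15.6 and 19.5 in kidney, where the difference from small intestine was not called. Slc2a2 (GLUT2), which passes sugars on to the blood, was at 47.8 and 58.6 in small intestine and 52.7 and 48.9 in liver. The mannose transporter Slc5a10 was lower (0.0409 and 0.178 against 28.7 and 35.7 in kidney), and the glucose transporters of other tissues Slc2a1, Slc2a3, Slc2a4 and the urate transporter Slc2a9 were not called, with log2 differences of -0.91, 0.10, 0.03 and 0.57.

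Among 19 transporters of peptides and amino acids, 11 were higher, 3 lower and 5 not called, with a median of 1.47. The oligopeptide transporter Slc15a1 (PEPT1), which takes up peptides from digested protein, was at 38.8 and 61.6 in small intestine, 0.0556 and 0.197 in kidney, 0.202 and 0.126 in liver and 0.185 and 0.182 in lung (log2 difference 5.43, standard error 0.18, adjusted p = 6.62e-07). Its kidney relative Slc15a2 was at 0.381 and 0.0229 in small intestine, 7.50 and 8.18 in kidney, 0 and 0.587 in liver and 2.44 and 2.66 in lung and was called lower (log2 difference -1.52). The pair thus had opposite directions. Slc6a19, the main carrier of neutral amino acids, was at 77.7 and 132 in small intestine and 78.2 and 67.2 in kidney, with no call between them, whereas Slc6a18 of the same family was at 0.416 and 0.248 in small intestine and 122 and 89.3 in kidney. Of the 19 genes, 4 were higher than in kidney and 6 were lower than in kidney, beside 15% and 13.6% of all genes tested. The glutamine transporter Slc38a3 was also called lower, with 0.238 and 0.192 in small intestine and 419.7 and 302 in liver (log2 difference -3.82). Slc6a20b, Slc7a5, Slc1a1, Slc1a5 and Slc38a5 were not called.

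**Figure D3:**
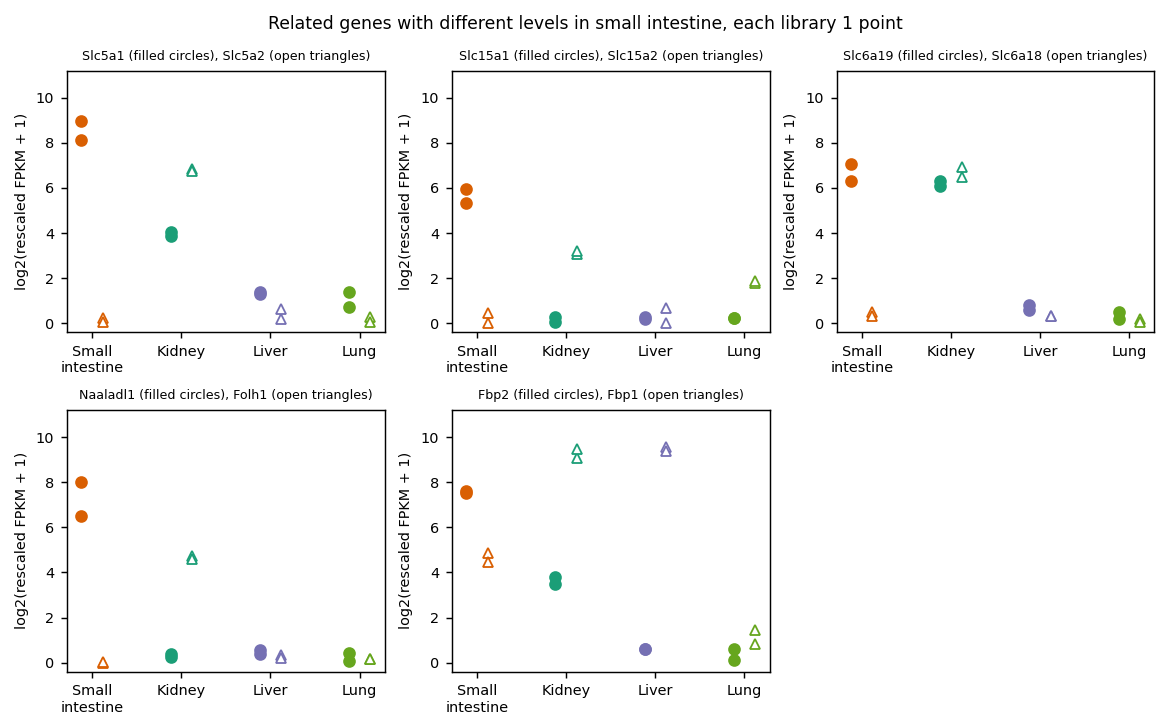
Levels of 5 pairs of related genes in each library, log2(rescaled FPKM + 1), by tissue, with filled circles for the gene that is high in small intestine and open triangles for its relative. Slc5a1, Slc15a1, Naaladl1 and Fbp2 are highest in the 2 small intestine libraries while Slc5a2, Slc15a2, Folh1 and Fbp1 are highest in kidney or liver, and Slc6a19 lies at about the same level in small intestine and kidney.

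Genes of fat absorption were higher in 21 of 26 tested, with a median log2 difference of 3.88. Enterocytes rebuild fat from fatty acids and monoglycerides and pack it with apolipoproteins into chylomicrons. Fabp2, the intestinal fatty acid binding protein, was at 4049.6 and 5855 in small intestine, 1.83 and 8.08 in kidney, 86.0 and 87.8 in liver and 6.60 and 1.32 in lung (log2 difference 8.63, standard error 0.54, adjusted p = 1.07e-05). Mogat2 and Dgat1, which rebuild triglyceride, were at 205 and 237 and 288 and 305, against at most 16.6 and 11.9 elsewhere. The cholesterol uptake protein Npc1l1 was at 75.2 and 116 in small intestine, 0.0405 and 0.144 in kidney, 0.133 and 0.104 in liver and 0.101 and 0.0474 in lung (log2 difference 6.43, standard error 0.17, adjusted p = 3.46e-07). Among these 4 genes the highest value elsewhere was that of Fabp2 in liver.

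Lipoprotein genes were shared with liver. Apolipoprotein A1 (Apoa1) was at 4678 and 4949 in small intestine and 5743 and 4098 in liver, and Fabp1 at 4192 and 2523 and 3809 and 3508, with no call between these tissues for either. Apolipoprotein B (Apob), the backbone of chylomicrons, was lower than in liver, at 44.2 and 58.1 against 178 and 119 (log2 difference against liver -1.50, standard error 0.27), and Apoc3 and Dgat2 were too. Dgat2 was called higher than the mean, but not without replicate 2 of small intestine (log2 difference 0.92). Mttp, which loads lipid onto apolipoprotein B, was higher than in liver, at 235 and 277 against 47.7 and 43.2 (log2 difference 2.47, standard error 0.19). Of the 26 genes 11 were called higher and 7 lower against liver alone. Cd36, Scarb1 and Acat2 were called lower than the mean of the others, with log2 differences of -1.23, -1.52 and -1.47, and Plin2 and Apoc2 were not called. For Apoa4, a chylomicron apolipoprotein at 544 and 445, 69.8% of the exon bases overlap another gene, as do 79.5% of those of Apoc2.

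Of 12 bile acid genes tested, 7 were lower than the mean and 2 higher, with a median of -1.36. The lower calls rest on liver, against which 10 were lower and 2 higher (median -3.64), beside 14% and 15.8% of all genes tested. Against kidney 2 were lower and 2 higher (median -0.02), beside 13.6% and 15%. Against lung 5 were higher and none lower (median 0.74), beside 15.8% and 15%. Without liver replicate 1 or replicate 2, 3 of the 8 genes that still reached the minimum were lower than the mean, with a median of -0.25 or -0.42. The 2 higher genes form the exporter of enterocytes, Slc51a at 82.8 and 123 and Slc51b at 23.7 and 39.1, against at most 45.4 and 11.4 in kidney and less in liver and lung. The liver genes of bile acid synthesis and uptake were at or near 0, with Cyp7a1 listed at 0 in both libraries and Slc10a1 at 0.264 and 0.230 against 324 and 327 in liver. Slc10a2, the ileal bile acid uptake transporter, was also lower, at 0.280 and 1.54 against 16.4 and 13.2 in kidney and 12.5 and 8.10 in liver (log2 difference -1.64, standard error 0.27, adjusted p = 0.00175). Nr1h4, Nr0b2 and Cyp27a1 were not called, and Cyp7a1 was not called without replicate 1 or without replicate 2 of small intestine (log2 differences -1.06 and -1.07). Fabp6 and Fgf15, which ileal enterocytes express, did not reach the minimum in 2 libraries, with Fgf15 at 0 and 0.524.

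Vitamin genes split, with 7 of 19 higher, 3 lower and 9 not called and a median of 0.74. The cellular retinol binding protein Rbp2, which holds vitamin A in enterocytes, was among the genes with the largest differences of all, at 4985 and 3037 in small intestine, 1.60 and 6.77 in kidney, 9.86 and 10.4 in liver and 5.22 and 1.28 in lung (log2 difference 9.41, standard error 0.50, adjusted p = 4.80e-06). The retinol carrier Rbp4 of plasma was called lower, at 2.01 and 2.40. The folate transporter Slc46a1 was at 70.4 and 46.3 against at most 22.6 elsewhere, and Isx, a homeobox factor that acts on vitamin A uptake, at 35.1 and 59.2 against at most 0.0896. Of the vitamin E binding protein Ttpa, liver held 172 and 129.8 and small intestine 0.305 and 0.145. For iron, calcium and zinc, 5 of 16 were higher, 2 lower and 9 not called, with a median of 0.47, beside 13% higher and 11.6% lower of all genes tested. The zinc transporters Slc39a4 and Slc39a5 (log2 differences 2.92 and 4.51), the iron oxidase Heph (3.69), the vitamin D receptor Vdr (3.92) and S100g (2.18) were higher, and Calb1 and Ftl1 lower. Ftl1, an iron storage subunit with many copies, lost the call without any 1 of 4 libraries, and its log2 difference was -0.79 without replicate 2 of small intestine, -0.88 without replicate 2 of kidney, -0.95 without replicate 1 of liver and -0.996 without replicate 2 of lung. The iron importer Slc11a2, the exporter Slc40a1, the reductase Cybrd1 and the calcium channel Trpv6 were not called, with values of 10.7 and 8.77, 6.83 and 4.53, 0.616 and 0.442 and 0.393 and 0.257 in small intestine.

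Salt, chloride and water genes were higher in 16 of 21, lower in 4 and not called in 1, with a median of 1.77. The receptor Gucy2c and its ligands, which stimulate fluid secretion, were high. Gucy2c was at 45.7 and 49.3 in small intestine, 0.0229 and 0.0609 in kidney, 0.0998 and 0.0780 in liver and 0.114 and 0.0214 in lung (log2 difference 5.51, standard error 0.11, adjusted p = 1.92e-07). Its ligands guanylin (Guca2a) and uroguanylin (Guca2b) were at 106 and 401 and at 631 and 676, and only Guca2b was also present in kidney, at 156 and 277. The ligand Guca2a differed by more than 2-fold between the small intestine libraries. The chloride and bicarbonate exchangers Slc26a3 and Slc26a6 were at 23.1 and 25.6 and 64.8 and 55.3 against at most 0.0620 and 1.11 elsewhere, and the chloride channel Cftr was at 6.42 and 7.34. Lower were the water channels Aqp1, Aqp2 and Aqp5 and the sodium channel subunit Scnn1a, the last at 2.41 and 2.41 against 7.06 to 36.2 in the other 6 libraries (log2 difference -2.48), below each of them. Slc4a4 was not called. The calls of Aqp1 and Aqp5 were lost without replicate 1 and without replicate 2 of small intestine, at -0.96 and -0.94.

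Of 18 goblet cell and mucus genes, 15 reached the minimum, 6 of them only with small intestine counted. Muc2 is among these 6, whose direction is fixed by the selection. With no minimum 15 of the 18 were called higher, with a median log2 difference of 4.23. The gel-forming mucin Muc2 was at 53.4 and 64.5 in small intestine, 0.0445 and 0.0789 in kidney, 0.249 and 0.130 in liver and 0.135 and 0.0594 in lung (log2 difference 5.74, standard error 0.12, adjusted p = 1.92e-07). The membrane mucin Muc13, at 1011 and 1369, the trefoil peptide Tff3, at 1070.2 and 923, and the lectin Zg16, at 1386 and 1569.9, were higher still, with log2 differences of 9.05, 8.53 and 8.96. No other library exceeded 2.998, 4.07 and 4.42 for these genes. Klk1, a kallikrein, was called higher than the mean of the others but lower than in kidney, at 89.0 and 61.2 against 1296 and 1250.4. Retnlb, St6galnac1 and Fut2 stayed below the minimum.

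Paneth cell and antimicrobial genes had the highest median of all lists, 7.27. Of the 18 genes 17 reached the minimum, 8 of them only with small intestine counted, and with no minimum 17 of the 18 were called higher, with a median of 7.22. Lysozyme 1 (Lyz1), which cuts bacterial cell walls, was at 1729 and 3172 in small intestine, 1.18 and 4.07 in kidney, 5.16 and 5.99 in liver and 165 and 152 in lung (log2 difference 7.27, standard error 0.35, adjusted p = 3.18e-06). The lectins of the Reg3 group, which bind bacteria, were at 1646 and 1053 for Reg3b, 389.8 and 479 for Reg3g and 373 and 267 for Reg3a. Lung held 75.6 and 63.8 of Reg3g, while Reg3b did not exceed 3.51 elsewhere. Lyz1 is a close copy of Lyz2, which was high in lung, so its lung value is uncertain. Lypd8, which keeps flagellated bacteria off the epithelium and is outside the list, was at 1351 and 1111 against at most 2.40. Nod2 stayed below the minimum.

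Alpha-defensins, the antimicrobial peptides of Paneth cell granules, made up most of the largest differences. All 20 genes with a Defa symbol that were tested were called higher. Those with coordinates lie in a cluster on chromosome 8 of GRCm38 from 21025545 to 21735471. Their summed level was 24380 and 45897 in small intestine and 8.52 to 90.8 in the other 6 libraries. Several of the 20 reached the minimum only with small intestine counted, which fixes their direction. Among these were Defa26, Defa28, Defa29 and Defa35, at most 0.778 elsewhere. Of the 15 genes with the largest positive differences among those at a mean of 10 or more in small intestine, 10 were alpha-defensins or genes of that cluster: Gm7849, Gm7861, Defa24, Defa-rs7, Defa23, Defa30, AY761184, Defa17, Gm14851 and Defa3. Defa24 was at 7368 and 11098 in small intestine, 4.75 and 18.8 in kidney, 20.7 and 21.7 in liver and 11.8 and 2.22 in lung (log2 difference 9.62, standard error 0.60, adjusted p = 1.04e-05). The genes are near-identical copies, and how reads that map to several of them were counted is not given in the sources used here, so each single value is uncertain.

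The defensin genes fell into classes by their ratio between the small intestine libraries. By the ratio of rescaled FPKM, for 7 genes the libraries were within 2-fold, for 7 replicate 2 was 2- to 16-fold higher, and for 6 it was 28.5- to 39.7-fold higher. The last class held Defa32 (30.0 and 1193), Defa20 (58.3 and 2252), Defa33 (37.5 and 1399.7), Defa2 (69.3 and 2383), Defa21 (44.9 and 1344) and Defa22 (50.8 and 1448). Each of the 6 was still at 30.0 or more in replicate 1, against at most 3.96 in any library of the other tissues. Their log2 differences were 6.56 to 7.34, and they stayed called without replicate 1 of small intestine, at 9.19 to 9.85, and without replicate 2, at 3.93 to 4.91. Promoters of Defa21 and Defa2 are shown because they belong to genes that were low in replicate 1, and their capitals mark the TATA box letters TATAAA, 31 to 26 bases before the start in both.
Defa21, chr8:21025485-21025544, plus strand: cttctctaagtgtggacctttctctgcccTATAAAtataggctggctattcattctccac
Defa2, chr8:21378457-21378516, plus strand: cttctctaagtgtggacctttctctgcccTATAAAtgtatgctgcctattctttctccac
The letters TATAAA were found in 14.3% of all promoters, 9.18% of those of the genes tested, 12.4% of those of genes called higher, 13.6% of those of genes called lower and 16.5% of those of genes at least 2-fold above all other libraries. Among the 14 promoters of the Paneth cell list they were found in 7.

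Of 18 enteroendocrine genes, 14 reached the minimum, 12 of them only with small intestine counted, so that their direction follows from the selection. With no minimum 14 of the 18 were called higher, with a median of 1.83. The hormones secretin (Sct), at 38.8 and 31.0, somatostatin (Sst), at 49.6 and 25.3, and glucagon (Gcg), at 11.8 and 15.5, did not exceed 0.306, 0.0942 and 0.132 in the other libraries. Gip, an incretin, had the largest difference, 6.33 (standard error 0.23). Chromogranin A (Chga), a general marker of these cells, was at 25.4 and 19.7 in small intestine, 0 and 0.0875 in kidney, 0.143 and 0.112 in liver and 0.0614 and 0.0307 in lung (log2 difference 4.45, standard error 0.12, adjusted p = 3.84e-07). The transcription factor Isl1 was not called, at 0.293 and 0.532 against 2.35 and 1.72 in liver. For the rarer tuft cells, which sense parasites, 5 of 9 genes tested were higher, among them Sh2d6, Rgs13, Avil and Trpm5, and 4 not called (Alox5, Alox5ap, Ptgs1 and Hpgds), with a median of 1.14. Of the 9, 4 reached the minimum only with small intestine counted, and of the other 5, 2 were higher, with a median of 0.41. With no minimum 5 of 14 were higher, with a median of 0.44, and without replicate 1 or replicate 2 of small intestine 2 genes were higher, with a median of 0.27 or 0.58. Dclk1 and Pou2f3, which define tuft cells, were at 0.531 and 0.452 and 0.564 and 0.573 and stayed below the minimum.

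Genes of dividing cells were higher in small intestine in 22 of 30 tested, with a median log2 difference of 1.69, and 14 were at least 2-fold above each other library. Mki67, a marker of cycling cells, was at 5.94 and 6.23 in small intestine, 0.256 and 0.0559 in kidney, 0.216 and 0.169 in liver and 1.66 and 1.71 in lung (log2 difference 2.20, standard error 0.11, adjusted p = 3.78e-06). The mitotic genes Ube2c, Ccnb2 and Hmgb2 had the largest differences, 3.38, 2.93 and 2.82. Lung was the next highest tissue for Mki67, Ccnb2 and Hmgb2, and above kidney and liver for each. Ccnd1, a cyclin of the entry into the cycle, was called lower, at 2.20 and 3.87 against 19.7 and 19.0 in kidney, and was not called without replicate 1 of small intestine (-0.84). Not called were Ccne1, Mcm2, Mcm4, Mcm7, Tyms, Rrm1 and E2f1. None of 18 genes of ribosome biogenesis was called in either direction by limma, and their median was 0.13; 9 of them had an adjusted p under 0.05 with a difference under 1.

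Stem cell and Wnt genes were higher in 9 of 14 tested, with a median of 1.10, and in 6 of the 11 that reached the minimum in the other libraries, with a median of 1.07. Olfm4, an abundant crypt base gene, was at 165 and 211 in small intestine, 8.05 and 4.72 in kidney, 0.867 and 0.208 in liver and 0.267 and 0.1001 in lung (log2 difference 6.33, standard error 0.24, adjusted p = 1.21e-06). Smoc2, Ascl2 and Myc were higher as well (log2 differences 2.26, 1.38 and 1.47), with Ascl2 at 2.09 and 1.56. The defining stem cell receptor Lgr5 was at 0.679 and 0.690 and did not reach the minimum. Znrf3, Cd44, Ephb3, Tnfrsf19 and Lrig1 were not called.

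Among transcription factors of the gut, the homeobox genes Cdx1 and Cdx2 and the GATA genes Gata4 and Gata6 were above all other libraries. Of 22 tested, 13 were higher and none lower, with a median of 1.51. Of these, 5 reached the minimum only with small intestine counted, Cdx1 and Cdx2 among them, which fixes their direction. Of the other 17, 8 were higher, with a median of 0.90. Cdx1 was at 50.4 and 59.4 in small intestine, 0.0517 and 0.0459 in kidney, 0 and 0.0882 in liver and 0.0967 and 0.0242 in lung (log2 difference 5.73, standard error 0.12, adjusted p = 1.92e-07). Cdx2, which specifies intestinal fate, was at 21.6 and 26.2 in small intestine, 0 and 0.0355 in kidney, 0 and 0 in liver and 0 and 0 in lung (log2 difference 4.62, standard error 0.11, adjusted p = 2.32e-07). Their letters are those marked in Sis and Lct above. Hnf4g was at 39.6 and 70.7 against at most 1.60 elsewhere, whereas its relative Hnf4a was shared, at 53.2 and 75.7 in small intestine, 91.0 and 86.5 in kidney and 111 and 96.1 in liver. Gata4 and Gata6 were at 23.1 and 24.0 and 21.4 and 25.5, above 3.84 and 5.85 in the other tissues, and Atoh1, which starts the secretory lineages, at 3.65 and 5.68. Foxa2, Foxa3 and Nr5a2 were not called against the mean and were lower than in liver. Foxa1, Hes1 and Prdm1 were not called either. Hes1 ran from 6.00 to 48.3 in the other libraries and was called lower without replicate 1 of kidney (-1.77).

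Transcription factors of the other organs were lower in 11 of 19 tested and higher in 1, with a median of -1.15. The lung factor Nkx2-1 was at 0.0340 and 0 against 29.1 and 30.8 in lung, and the kidney factor Emx1 at 0.0443 and 0 against 10.1 and 16.6. Hhex, of liver, had the most negative difference, -1.84. Tbx3 was called higher, at 10.3 and 14.95 against 7.21 and 6.28 in lung.

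Lymphocyte genes differed by type. Of 15 genes of T cells and intraepithelial lymphocytes, which sit between enterocytes, 11 were higher, with a median of 1.62. Granzyme A (Gzma), a protease of cytotoxic cells, was at 87.3 and 79.7 in small intestine, 0.135 and 0.320 in kidney, 1.18 and 0.767 in liver and 7.96 and 10.9 in lung (log2 difference 4.86, standard error 0.16, adjusted p = 7.19e-07). The chemokine Ccl25, made by enterocytes, was at 73.6 and 81.1 against at most 1.12. Cd8a was higher, at 3.75 and 4.80, but Cd8b1 was not called and was lower than in lung, at 0.913 and 0.739 against 4.37 and 5.31. Cd3e, Cd4 and Tbx21 were not called. Genes of B and plasma cells were higher in 6 of 15 against the mean but lower than lung in 10 of 15. The antibody joining chain Jchain was at 541 and 296 in small intestine and 435 and 257 in lung, with 10.1 and 12.8 in kidney and 5.49 and 3.86 in liver. The polymeric immunoglobulin receptor Pigr, which carries antibody across the epithelium, was highest in small intestine, at 1265 and 1024 in small intestine, 23.1 and 27.3 in kidney, 425 and 398 in liver and 39.0 and 26.1 in lung. Ms4a1, of B cells before the plasma cell stage, was at 0.453 and 0.927 against 6.98 and 9.22 in lung. Jchain was not called against lung, while Ms4a1 was lower than in lung. The median of the list against lung was -1.41, and -2.17 with the values as deposited.

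Immunoglobulin variable segments were counted on their own. Of 165 tested, 103 were called higher than the mean, 1 lower and 61 neither. Against kidney and against liver 130 were higher, but against lung 17 were higher and 29 lower, beside 15.8% and 15% of all genes tested. Their summed level was 4857 and 2661 in small intestine, 4480 and 2553 in lung, 99.4 and 103 in kidney and 51.8 and 53.3 in liver. Single segments varied between the small intestine libraries: Ighv10-3 was at 162 and 6.26 and Igkv8-27 at 357 and 23.7, the latter called with both libraries but not without replicate 1 (limma adjusted p = 0.116).

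Of 16 myeloid genes tested, 5 were lower than the mean and none higher, with a median of -0.34. Against kidney 7 were higher and none lower (median 0.69). Against the mean 2 were lower without replicate 1 of small intestine, and 1 was lower and 1 higher without replicate 2. Lyz2 was at 93.3 and 74.7 against 2901 and 2545 in lung, with a call that was lost without replicate 2 of small intestine (-0.91) or of kidney (-0.95), and the liver macrophage marker Clec4f at 0.0391 and 0 against 66.7 and 60.7. The complement genes of resident macrophages C1qa, C1qb and C1qc were not called, with C1qb at 34.8 and 25.0 in small intestine and 8.15 to 62.8 elsewhere.

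Smooth muscle genes were higher in 11 of 13 tested, with a median of 2.46. Enteric smooth muscle actin (Actg2) was at 59.1 and 53.1 in small intestine, 0.262 and 0.516 in kidney, 0.761 and 0.198 in liver and 8.87 and 8.30 in lung (log2 difference 4.41, standard error 0.18, adjusted p = 1.48e-06). Against lung, 4 of the 13 were higher, and the median of 0.77 against lung was 0.04 with the values as deposited. Hspb6 and Synpo2 were not called. Of the enteric neuron, glia and pacemaker genes, 3 of 10 were higher (Vip, Prph and Uchl1), with a median of 0.64 and led by the neuropeptide Vip at 5.005 and 5.70 against at most 0.0497, and 7 were not called, among them Kit and Ano1 of pacemaker cells, which were lower than in lung. Of the 10, 4 reached the minimum only with small intestine counted, Vip among them, and of the other 6, 1 was higher, with a median of -0.01. Without replicate 1 or replicate 2 of small intestine the median was -0.10 or 0.10, with 1 gene of 7 higher. Endothelial genes were lower in 14 of 18 tested, with a median of -1.72, and 18 of 18 were lower than in lung (median -3.57), 6 lower than in kidney (median -0.78) and 6 lower than in liver (median -0.56, and 0.02 with the values as deposited). Cldn5, of tight junctions between endothelial cells, was at 2.74 and 1.79 in small intestine and 176 and 231 in lung (log2 difference from the mean -2.68). Vwf, Emcn, Robo4 and Plvap were not called against the mean. Extracellular matrix genes were lower than the mean in 6 of 20 and higher in none, with a median of -0.25. Against lung 14 were lower (median -1.43), beside 15% of all genes tested. Against kidney 6 were higher and 2 lower (median 0.49), beside 15% and 13.6% of all genes. Against liver 4 were higher and 2 lower (median 0.58), beside 15.8% and 14%. With the values as deposited the medians were -2.20 against lung, 0.60 against kidney and 0.81 against liver. Against the mean, the most negative difference was that of fibronectin (Fn1), -1.62.

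Genes of pancreatic acinar cells, which make the enzymes secreted into the gut, had a median log2 difference of 6.58 over 19 genes. All 19 were called higher, but 14 of them reached the minimum only with small intestine counted, and without replicate 1 or replicate 2 of small intestine 6 genes were left to test. The amylase Amy2a2 was at 743 and 357 in small intestine, 0.304 and 0.951 in kidney, 0.957 and 1.12 in liver and 0.501 and 0.114 in lung (log2 difference 8.32, standard error 0.30, adjusted p = 8.54e-07). The chymotrypsinogen Ctrb1 was at 913 and 426 and the lipase Pnlip at 302 and 162. Replicate 1 was above replicate 2 in 18 of the 19 genes, by a median of 0.99 on the log2 scale. Zg16 of this list is also a goblet cell gene, Cela1 was also present in kidney, at 74.2 and 103, and the amylases and trypsins are close copies whose single values are uncertain. Of 8 adipocyte genes tested, 4 were higher than the mean (Cidec, Lipe, Cfd and Adipoq), with a median of 0.76, but Adipoq was at 3.78 and 2.32 against 4.90 and 2.73 in lung, and the fat cell genes Plin1 and Lep were near 0. Without replicate 1 of small intestine the calls of Adipoq and Cfd were lost (log2 differences 0.80 and 1.53), that of Cfd also without replicate 2 (1.45), and that of Adipoq without replicate 1 of kidney (0.97) or replicate 2 of lung (0.90). The part of pancreatic or fat tissue in the small intestine values was not tested.

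Energy and nitrogen metabolism divided within pathways. Of 15 genes of the urea cycle and arginine exchange, 8 were higher and 6 lower than the mean, with a median of 1.01. Against liver 3 were higher and 10 lower (median -1.53, and -0.82 with the values as deposited). The first steps, which make citrulline in enterocytes, were higher than the mean but lower than liver: Cps1 was at 77.0 and 72.3 in small intestine, 0.179 and 1.23 in kidney, 908 and 773 in liver and 0.629 and 0.419 in lung (log2 difference 2.57, standard error 0.24, adjusted p = 7.95e-05), and Otc at 45.8 and 54.2 against 248 and 264 in liver. The steps that turn citrulline into arginine were lower: Ass1 was at 3.01 and 2.62 in small intestine, 844 and 1245 in kidney, 1902 and 1130.0 in liver and 9.09 and 7.21 in lung (log2 difference -5.97, standard error 0.25, adjusted p = 1.85e-06), and Asl was at 4.11 and 3.98 against 35.2 and 45.5 in kidney and 184 and 149.8 in liver. Aldh18a1, which makes the precursor of ornithine and proline from glutamate, was at 32.4 and 27.5 against at most 2.20. The small intestine libraries thus held transcripts of citrulline synthesis at a level above kidney and lung and those of the next steps below kidney and liver.

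Gluconeogenesis and fructose genes were higher in 5, lower in 5 and not called in 5 of 15, with a median of -0.23. Against lung 9 were higher and none lower (median 3.51), against liver 3 higher and 8 lower (median -1.63) and against kidney 2 higher and 6 lower (median -0.39). With the values as deposited these medians were 3.01, -0.77 and -0.07, in the same order. The fructose enzymes Khk and Tkfc were called higher than the mean but not against liver or kidney, with Khk at 261 and 231 in small intestine, 261 and 400.3 in kidney, 241 and 213 in liver and 5.40 and 6.13 in lung. The fructose bisphosphatases were exchanged, with Fbp2 at 181 and 192 in small intestine, 10.0 and 12.7 in kidney, 0.538 and 0.525 in liver and 0.499 and 0.0865 in lung (log2 difference 6.02, standard error 0.16, adjusted p = 3.56e-07) and Fbp1 at 27.7 and 20.7 in small intestine, 532 and 702 in kidney, 758 and 664 in liver and 1.69 and 0.797 in lung (log2 difference -1.98, standard error 0.22, adjusted p = 0.000222). Gpt was higher, and Fbp1, Pcx, Gckr and Pfkfb1 were among the lower genes. Pck1, which commits carbon to glucose, was at 37.8 and 115 against 580.0 and 359 in kidney and 1576 and 1099.6 in liver, and with a standard error of 0.47 it was not called against the mean, though it was without replicate 2 of small intestine (-1.79). G6pc, Slc37a4, G6pc3 and Pck2 were not called either.

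Amino acid breakdown was lower in 24 of 26 genes, with a median of -2.87, and all 26 were lower than in liver. Haao, of tryptophan breakdown, was at 0.950 and 1.17 in small intestine, 142 and 227 in kidney, 591 and 528 in liver and 4.15 and 6.62 in lung (log2 difference -5.38, standard error 0.23, adjusted p = 1.93e-06) and was below each other library. Cth was not called, and Oat, which links ornithine to glutamate, was higher than the mean, at 267 and 338, though lower than in liver. The call of Oat was lost without replicate 2 of small intestine (0.86), replicate 1 of kidney (0.98), replicate 2 of liver (0.87) or replicate 2 of lung (0.99). Of 23 genes of fatty acid oxidation and ketone bodies, 1 was higher than the mean (Hadh) and 4 lower (Acot1, Acaa1b and Acadm among them), with a median of -0.37, beside 13% higher and 11.6% lower of all genes tested. The single tissues stood on either side of small intestine. Against kidney 14 were lower and none higher (median -1.10) and against liver 15 lower and 1 higher (median -1.50). Against lung 17 were higher and none lower (median 1.70). With the values as deposited these medians were -0.80, -0.67 and 1.06, in the same order. Of 30 nuclear subunits of oxidative phosphorylation 5 were higher than the mean, beside 13% of all genes tested, and none lower, with a median of 0.57. Against kidney 3 were lower and none higher, beside 13.6% and 15% of all genes tested. The kidney median was -0.58, and -0.27 with the values as deposited. Against lung 28 of 30 were higher, beside 15.8% of all genes. The lung median was 2.04, and 1.26 with the values as deposited. Genes of the mitochondrial genome itself took 23.3% and 24.7% of summed FPKM in small intestine, 34.1% and 36.0% in kidney, 22.6% and 21.2% in liver and 13.2% and 11.7% in lung, and mt-Co1, among the genes with the highest level in small intestine at 35327 and 42713, was not called. These shares leave out 7 pseudogenes on chromosome 1 of GRCm38, from 24611535 to 24616197, which are nuclear copies of mitochondrial genes. The copies took a further 25.5% and 24.0% in small intestine, 29.1% and 32.4% in kidney, 20.9% and 19.3% in liver and 12.2% and 11.1% in lung, and 1 of them, Gm29216, had the highest level of all genes in small intestine, at 73094 and 64126. How reads shared with the copies were counted is not given in the sources used here, so the split between the mitochondrial genes and their copies is uncertain.

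Drug-metabolizing genes were exchanged between members of the same family. Of 21 oxidation genes, 11 were higher and 8 lower, with a median of 1.14, and against liver alone 7 were higher and 12 lower. Without replicate 2 of small intestine 8 were higher and 8 lower than the mean, with a median of 0.06. Over the 19 genes that reached the minimum in the other libraries, 9 were higher and 8 lower, with a median of 0.54. The cytochrome Cyp2c65 was at 135 and 153 in small intestine, 0.117 and 0.292 in kidney, 0.410 and 0.240 in liver and 0.351 and 0.0659 in lung (log2 difference 6.87, standard error 0.15, adjusted p = 1.92e-07). Cyp2e1, an abundant form of liver, was at 2.78 and 1.99 in small intestine, 415 and 483 in kidney, 3872 and 2643 in liver and 8.15 and 4.55 in lung (log2 difference -6.01, standard error 0.25, adjusted p = 1.75e-06). Cyp2f2, of liver and airway, was at 0.334 and 0.416 against 829 and 646 in liver and 419 and 449 in lung. Cyp2c66, Cyp3a13 and Cyp4f14 were higher than the mean (log2 differences 5.85, 5.78 and 5.36), and Cyp2c29 and Por were not called. Cyp3a11 was higher than the mean and lower than liver, at 172 and 415 against 2284 and 2126, with more than 2-fold between the small intestine libraries. Of 22 conjugation and efflux genes, 12 were higher and 3 lower than the mean, with a median of 1.48, but against liver 6 were higher and 11 lower (median -0.66, and 0.20 with the values as deposited). The glutathione transferase Gsta1 led them, at 915 and 699 against at most 21.9, and Ces1d, Sult1a1 and Ephx1 were lower, with Ces1d at 10.5 and 7.76 against 127 to 493 elsewhere.

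The lower genes were led by products of liver, kidney and lung. All 18 liver plasma protein genes tested were lower, with a median log2 difference of -3.93, and 21 of 25 coagulation and complement genes, with a median of -2.64. For these the difference from the mean rests on liver, since 18 of 18 and 24 of 25 were lower than liver but 6 and 5 were lower than kidney. Serpina1a, a protease inhibitor of plasma whose copies are near-identical, was also lower than in kidney, at 2.11 and 2.71 against 31.4 and 46.5. Pros1, C2, Cfb and Mbl2 were not called, and Mbl2, a lectin that starts complement, was at 5.62 and 11.3, higher than in kidney and lung and lower than in liver. Of 16 kidney tubule genes 15 were lower, with a median of -2.39, and Cldn16 was not called against the mean. The androgen-regulated kidney gene Kap, with the most negative difference of that list, was at 18.2 and 13.2 in small intestine and 9.23 to 44051 in the other libraries. Of 14 surfactant and airway genes 13 were lower, with a median of -2.94. Napsa, an aspartic protease shared by lung and kidney, was at 2.29 and 1.55 in small intestine, 404 and 720.0 in kidney, 1.78 and 2.32 in liver and 54.4 and 47.8 in lung, and Hopx was not called, at 21.6 and 15.96. Motile cilium genes were lower in 3 of 10 tested (Foxj1, Rsph1 and Dynlrb2), with 7 not called and a median of -0.72, without either lung library 1 gene was left to test, and Rsph1 lost its call without replicate 2 of small intestine (-0.74) or replicate 1 of kidney (-0.97).

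A small group of genes was low in small intestine against every other tissue. Of the 168 genes at least 2-fold below each other library, the highest level was in liver for 75, in kidney for 56 and in lung for 37. Inmt, a methyltransferase that acts on indoles and other amines, had the most negative difference of all genes by the rule used, at 1.09 and 0.948 in small intestine, 356 and 602 in kidney, 841 and 606 in liver and 716 and 763 in lung (log2 difference -8.28, standard error 0.24, adjusted p = 4.74e-07). Spp1 (osteopontin), a secreted matrix protein, was at 1.06 and 1.02 in small intestine, 311 and 413 in kidney, 61.4 and 91.4 in liver and 54.5 and 22.0 in lung (log2 difference -5.60, standard error 0.33, adjusted p = 8.32e-06). Hsd11b1, which converts inactive glucocorticoid to its active form, was at 0.933 and 0.476 in small intestine, 23.3 and 46.7 in kidney, 255 and 232 in liver and 35.7 and 37.9 in lung (log2 difference -5.33, standard error 0.26, adjusted p = 3.18e-06). Both small intestine libraries lay below each of the other 6 for all 3 genes. Fmo1, a monooxygenase, was at 0.936 and 1.204 against 20.9 to 67.3. The same held for Cyp2a5, at 0.0467 and 0.244 against 12.2 to 464. Azgp1 and Acsm1 were also at least 2-fold below each other library, at 0.240 and 0.367 and 0.0444 and 0. Of the 15 genes with the most negative differences, Serpina1d, Cyp2d9, Ugt3a2 and Gc were not below every library by 2-fold and did not exceed 2.48 in small intestine.

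**Figure D4:**
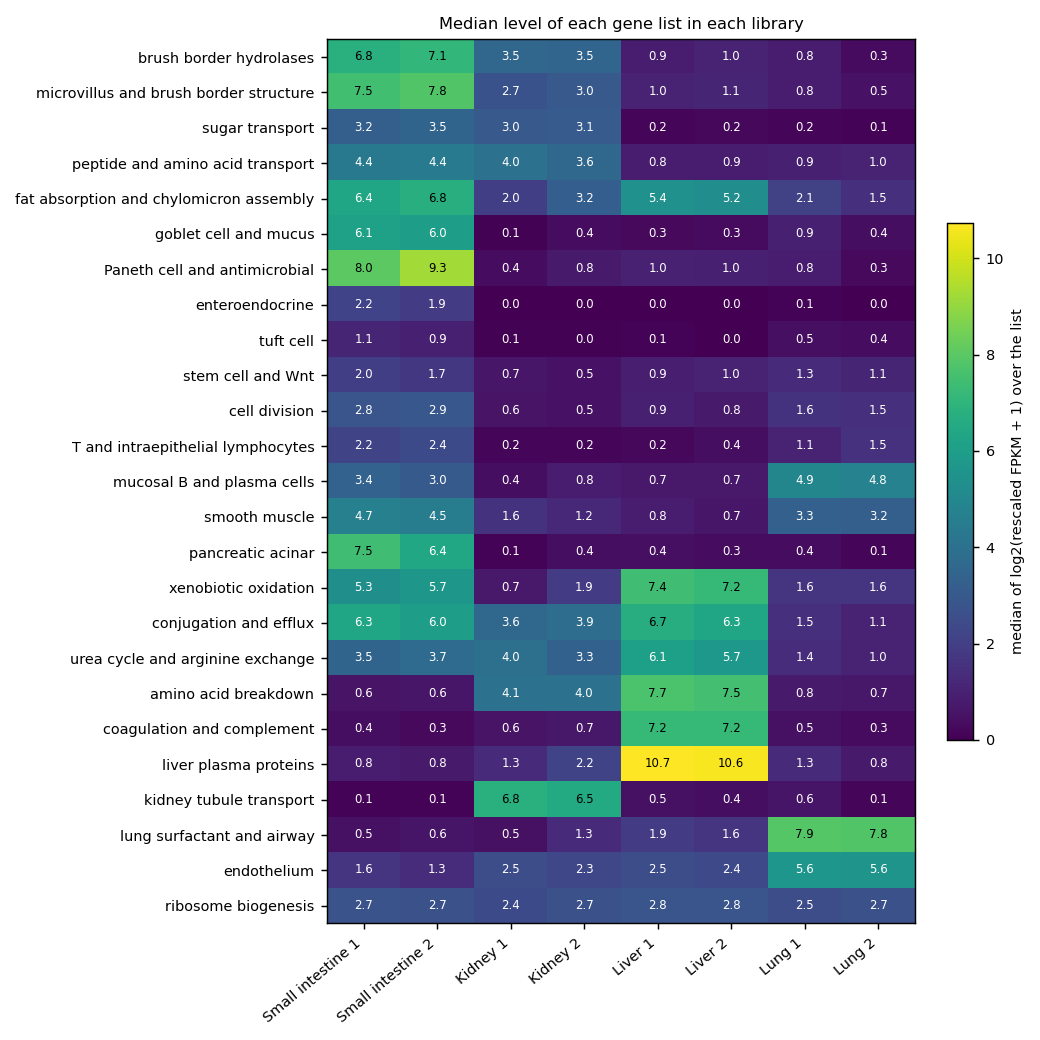
Median level over the members of 25 lists, whether or not they reached the minimum for a test, log2(rescaled FPKM + 1), in each of the 8 libraries, with the value printed in each cell. The small intestine columns are highest for the brush border, microvillus, sugar, amino acid and fat uptake, goblet cell, Paneth cell and pancreatic lists, the amino acid breakdown, coagulation and plasma protein lists are highest in the liver columns, and ribosome biogenesis lies between 2.39 and 2.83 in all 8.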

How the data were processed

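Kidney, liver, lung and small intestine of mice with no treatment named were sequenced, with 2 libraries per tissue. According to the methods, the authors picked out each sample's reads by index with bbduk, aligned them with STAR to the Ensembl release 75 mouse genome (GRCm38) and deposited FPKM values from DESeq2. The kit did not keep the strand, and the counting program and its treatment of multiply mapped reads are not given in the sources used here. The table held 52195 genes, of which 51844 were matched to GENCODE M21 for coordinates and gene type.

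FPKM were rescaled by the median of ratios (factors 0.552 to 1.90, small intestine 1.10 and 1.05), and log2(value + 1) of the 16328 genes with at least 1 FPKM in 2 or more libraries was fitted with limma 3.58.1 (R 4.3.3) on a 4-tissue factor with an intensity trend. The contrasts were small intestine against the mean of the other 3 tissues and against each tissue. Calls needed a Benjamini-Hochberg adjusted p under 0.05 over all genes tested and an absolute log2 difference over 1. Standard errors are those of the moderated fit. Whole reads were recovered from the FPKM steps and tested with limma-voom as an alternative added after the data were seen. The other alternatives were pseudocounts, filters, scalings, no trend, 2 groups, a replicate block and leaving out each library.

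The members and gene lists were chosen with earlier results of these data known. Named genes were the 15 called genes with the largest differences in each direction among those with a mean of 10 or more (in small intestine for the higher, over the other 6 libraries for the lower) and no overlap between small intestine and the other libraries, list members, the most abundant genes of small intestine and those with the widest gap between its libraries, while the stomach and Brunner gland genes and those of the other observations were chosen after their values were seen. Statistics scripts were tested on simulated data. Some genes are not reported here. Figures were drawn with matplotlib 3.10.9 under Python 3.11.15.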

Additional observations from a re-analysis of the deposited data

How the results depend on the processing

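The counts of genes called higher and lower in small intestine stayed within 1.5 times of 2129 and 1895 under most alternatives. With 2 groups in place of 4 tissues, where the spread between the other tissues enters the error, 1048 genes were higher and 164 lower, and 8 lists in place of 21 were mostly higher and 0 in place of 8 mostly lower. With limma-voom on recovered reads 3009 were higher and 2966 lower, of 16187 genes, and 2109 and 1792 of the main calls were kept. A pseudocount of 0.1 gave 3181 lower genes, 3699 lower than in lung and 417 at least 2-fold below all other libraries. Asking for 4-fold left 392 genes above and 20 below all others.

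Scaling moved the single-tissue counts. As deposited, without mitochondrial genes and at an equal sum of FPKM, the genes higher than in liver numbered 4620, 4290 and 4201 and those lower 1288, 1327 and 1356, and the genes higher than in lung numbered 1644, 1484 and 1331 and those lower 4990, 5700 and 6961. The cause was not tested.

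Leaving out 1 library at a time gave 1705 to 2181 higher and 1730 to 1864 lower genes, 659 to 925 above and 173 to 205 below all other libraries, and 15 to 22 lists mostly higher and 7 to 8 mostly lower. Against kidney it gave 2048 to 2616 higher and 1913 to 2274 lower, against liver 2189 to 2622 and 1931 to 2325, and against lung 2165 to 2610 and 1645 to 2538. A lone small intestine library is then assumed to vary like the other groups. Only 15 lists were mostly higher without replicate 2 of small intestine and 17 without replicate 1.

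With the replicate number as a block 2133 genes were higher and 1893 lower, and 2126 and 1891 of these were among the main calls. Deviations of same-numbered libraries correlated at -0.217 to 0.0266, and the numbers were not taken to mark the mouse, which the labels do not give.

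The 301 named genes that were tested gave 5556 comparisons with the alternatives. In 5296 a call was kept in its direction or a gene without a call stayed without one. In 166 a call was lost and in 91 a call of the same sign was gained. Signs were not compared for genes without a call in both fits. In 3 a gene without a call gained one with the opposite sign, all with limma-voom: Cd8b1 at 1.27, Mbl2 at 1.09 and Slc6a20b at 1.30. List medians changed sign for enteric neurons (genes of FPKM 5 or more, or without small intestine replicate 1), the motile cilium (without either lung library) and gluconeogenesis (without either liver library). With 2 libraries per tissue, values of genes at low levels rest on few reads, and precision was not compared between levels.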

Other observations

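The genes in these paragraphs, apart from Ada of the proximal list, were in none of the lists and were chosen after their values were seen. The butyrophilin-like genes Btnl1 and Btnl6, which act on intraepithelial lymphocytes, were at 113 and 137 and 47.5 and 104, against at most 0.273 and 0.226 elsewhere. Of the inflammasome, which senses microbes inside cells, the pore-forming protein Gsdmd was at 135 and 134 against 1.45 to 18.6, the protease Casp1 at 86.0 and 83.6 against 0.333 to 5.43 and the cytokine Il18 at 91.8 and 73.5 against 2.06 to 22.0. Nlrp6, a sensor of the epithelium, was at 44.3 and 56.3 in small intestine, 26.9 and 14.2 in kidney, 43.9 and 50.7 in liver and 0.1998 and 0.0417 in lung, so liver and small intestine overlapped. The antigen-presenting genes H2-Ab1 and H2-Aa were at 148 and 182 and 118 and 128 in small intestine and at 223 and 209.7 and 275 and 259 in lung, and only H2-Ab1 was called against the mean.

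Single genes that take up or break down nucleosides were also read. The nucleoside transporters Slc28a1 and Slc28a2 were at 41.6 and 32.0 and 16.7 and 39.4, adenosine deaminase (Ada) at 185 and 191, guanine deaminase (Gda) at 133 and 129 and xanthine dehydrogenase (Xdh) at 111 and 100.4, with log2 differences of 4.38, 3.92, 6.30, 5.51 and 2.91, all called higher. Urate oxidase (Uox), which acts next, was lower, at 0.0966 and 0.118 against 596 and 527 in liver. Of the amine oxidases, Aoc1, which breaks down histamine, was at 147 and 177 and Maoa at 180.3 and 214, against 0.243 to 1.26 and 2.70 to 8.62 in the other libraries. The glutathione peroxidase Gpx2 was at 57.2 and 50.9 against at most 3.93, and the lectin Lgals4 at 834 and 921 against at most 9.99.

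Among genes low in small intestine, Mettl7a1 was at 15.9 and 13.8 against 195 to 331, and Glul, which makes glutamine, at 5.68 and 6.57 against 23.9 to 120.4. The globin Hbb-bs was at 88.3 and 32.5 in the small intestine replicates and 279.9 to 3921 elsewhere.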
